A study of Homo sapiens with 4 samples.

Results

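The 7 mRNAs for complex I subunits that are encoded in mitochondrial DNA were followed across 4 RNA libraries from the human cell line MDA-MB-231, which derives from a triple-negative breast cancer. They were chosen by symbol, as every gene whose name begins with MT-ND, and all 7 were listed in every library, among 11288 genes listed in all 4. They were MT-ND1, MT-ND2, MT-ND3, MT-ND4L, MT-ND4, MT-ND5 and MT-ND6, of the 13 protein-coding genes of the mitochondrial genome. Each gene is counted here as 1 mRNA, also where genes share an mRNA, as MT-ND4L and MT-ND4 do. One pair of libraries held RNA recovered on magnetic beads by an antibody against PABPC1 (the PABPC1 pulldown) and the input RNA of the lysate. The other pair held RNA of cells in which the long non-coding RNA LINC00882 was knocked down, with an siRNA or Smart Silencer as the labels variously name it (si_LINC00882), and RNA of control cells (si_NC). All cells were grown in L15 medium with serum. Each group was 1 library of this 1 line, so no test was possible and every difference is a description of these libraries. An IgG pulldown and the level of LINC00882 were not analysed here, so neither binding to the beads alone nor the extent of the knockdown was checked.

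Complex I (NADH:ubiquinone oxidoreductase) is the first enzyme of the respiratory chain and is built from subunits of both genomes. The mitochondrial subunits form the core of the membrane arm. MT-ND2, MT-ND4 and MT-ND5 are the antiporter-like subunits of the proton path, MT-ND1 lies next to the quinone site, and MT-ND3, MT-ND4L and MT-ND6 are small subunits between them. The mRNAs are cut from long transcripts of both DNA strands inside the organelle and most receive short poly(A) tails there. MT-ND4L and MT-ND4 overlap and stay together as 1 mRNA. MT-ND6 is the only mRNA from the opposite strand, and its mRNA is known to carry little or no tail. PABPC1, which binds poly(A) tails in the cytoplasm, works on nuclear-encoded mRNAs in the cytosol.

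The summed value over all genes was 197844 FPKM in the pulldown, 338894 in input, 216346 in si_LINC00882 and 209725 in si_NC. FPKM are fragment counts divided by transcript length and by the number of fragments mapped in the library, so levels can be set side by side between genes, but each library's scale depends on all of its RNA. The MDA-MB-231 markers VIM, CD44, CAV1, AXL and MMP14 were listed in every library, with a summed level of 684 FPKM in the pulldown, 659 in input, 758 in si_LINC00882 and 768 in si_NC. These sums hide differences in both directions, as CAV1 stood at 160 FPKM in the pulldown and 30.3 in input, MMP14 at 66.8 and 10.7, and VIM at 155 and 367 in the same order. In si_NC, CAV1 stood at 144, MMP14 at 69.5 and VIM at 260.4 FPKM. Of 8 genes taken as low in this line, ESR1, PGR and CDH1 were not among the genes listed and ERBB2 and EPCAM were at most 10.5 FPKM. The keratin genes KRT8, KRT18 and KRT19 were not low, at 30.7 to 68.8 FPKM over the 4 libraries. Of 6 markers of blood, endothelial and liver cells, 1 was listed, the liver gene ALB, at 4.47 FPKM in the pulldown and listed at 0 in input.

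All 7 complex I mRNAs ranked among the 62 most abundant of all listed genes in input, si_LINC00882 and si_NC. In the pulldown 5 of the 7 ranked among the 49 most abundant, and MT-ND5 ranked 167. Together they took 1.41% of the summed FPKM in the pulldown and 18.6% in input, and 8.44% in si_LINC00882 and 6.998% in si_NC. MT-ND4 had the highest level of the 7 in every library and MT-ND6 the lowest. Across the family the highest level was 18.3 times the lowest in the pulldown and 38.0 times in input, against 13.7 times in si_LINC00882 and 12.1 times in si_NC. Over all listed genes, MT-ND4 ranked 7 by level in the pulldown and 5 in each of the other libraries. MT-ND6 ranked 947 in the pulldown and 44 in input, and 46 in si_LINC00882 and 62 in si_NC.

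**Figure D1:**
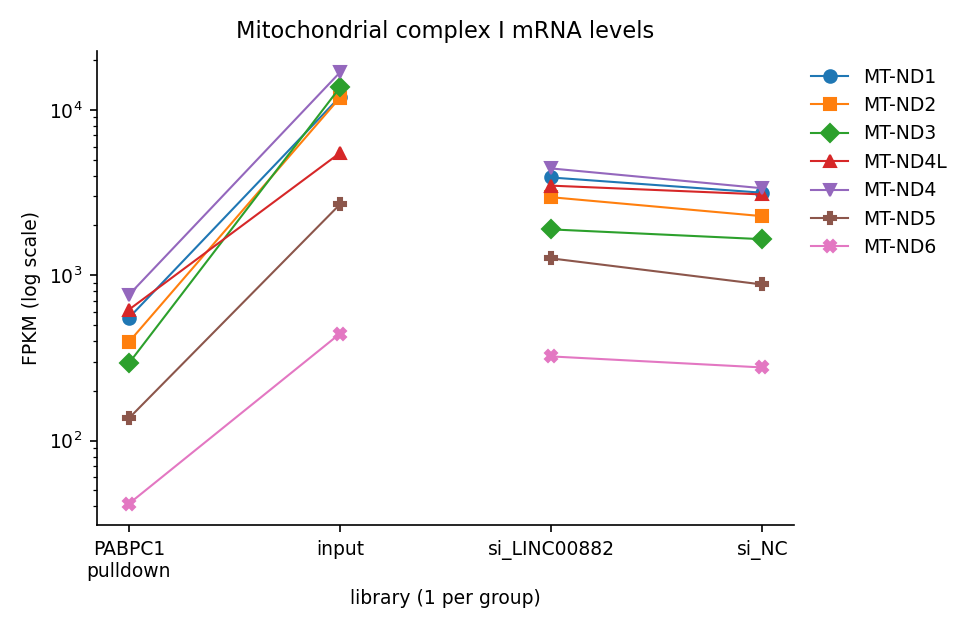
Level of each of the 7 complex I mRNAs in FPKM on a log axis, in the 1 library of each group, with lines joining the 2 libraries of a pair. Every line is lower at the pulldown than at input, and the lines for MT-ND3 and MT-ND4L cross others, while si_LINC00882 lies slightly above si_NC for all 7.

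All 7 mRNAs were lower in the PABPC1 pulldown than in input, by 8.88 to 46.7 times. Ratios are given as the log2 of FPKM plus 1 in the first library over the second, for genes that had 1 FPKM or more in either of them, and a gene was counted as changed in level at 2-fold or more. The 7 ratios lay between -5.54 and -3.15, with a median of -4.44, whereas the median of the 10856 genes compared was 0.47. All 7 were past 2-fold lower, a size that 2.37% of all genes compared reached.

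Of the antiporter-like subunits, MT-ND4 stood at 760 FPKM in the pulldown and 16872 in input (log2 ratio -4.47). MT-ND2 stood at 394 FPKM in the pulldown and 11865 in input (-4.91). MT-ND5 stood at 136 FPKM in the pulldown and 2686 in input (-4.29). These 3 mRNAs differed in input by up to 6.28 times in level (MT-ND4 over MT-ND5), yet their ratios were within 0.62 of each other. MT-ND1, of the quinone site, stood at 552 FPKM in the pulldown and 12025 in input (-4.44), close to them.

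The small subunits held both ends of the range. MT-ND3 stood at 293 FPKM in the pulldown and 13685 in input (-5.54), the second lowest ratio of all genes compared, after the ATP synthase subunit MT-ATP6 (-7.44). MT-ND4L stood at 619 FPKM in the pulldown and 5496 in input (-3.15), the smallest difference of the 7. MT-ND6, from the other strand, stood at 41.5 FPKM in the pulldown and 444 in input (-3.39). By the level listed for each gene, MT-ND4L and MT-ND6 were thus the least reduced members. Both still ranked among the 15 lowest ratios of the 10856 genes. MT-ND4L shares an mRNA with MT-ND4 (-4.47), and how fragments over their shared stretch were assigned is not stated. Their ratios are therefore not those of separate mRNAs, and that of MT-ND4L is uncertain. MT-ND6 lies antisense to transcripts of the other strand, and whether the libraries kept strand is not stated in the labels or headers used here, so fragments of both strands cannot be told apart at that gene.

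The 6 other mitochondrial mRNAs were lower in the pulldown as well. They code for oxidase, ATP synthase and cytochrome b subunits, and all 6 were past 2-fold lower in the pulldown, between -7.44 and -4.08 (median -4.68). The complex I mRNAs made up 46.0% of the summed FPKM of the 13 in the pulldown and 39.4% in input. MT-ATP6 alone made up 1.99% of the 13 in the pulldown and 13.2% in input, so the share of the complex I mRNAs depends on it. The MT-ATP6 gene overlaps those of MT-ATP8 (-4.56) and MT-CO3 (-4.80). How fragments over the shared stretches were assigned is not stated, so the level and ratio of MT-ATP6 are uncertain. By listed level, MT-ND4L and MT-ND6 were the 2 members less reduced than every mRNA of the other group, the nearest of which was MT-CO1 (-4.08). Without a replicate this difference was not tested. MT-ND4, which shares an mRNA with MT-ND4L, lay within the range of the other group (-4.47).

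**Figure D2:**
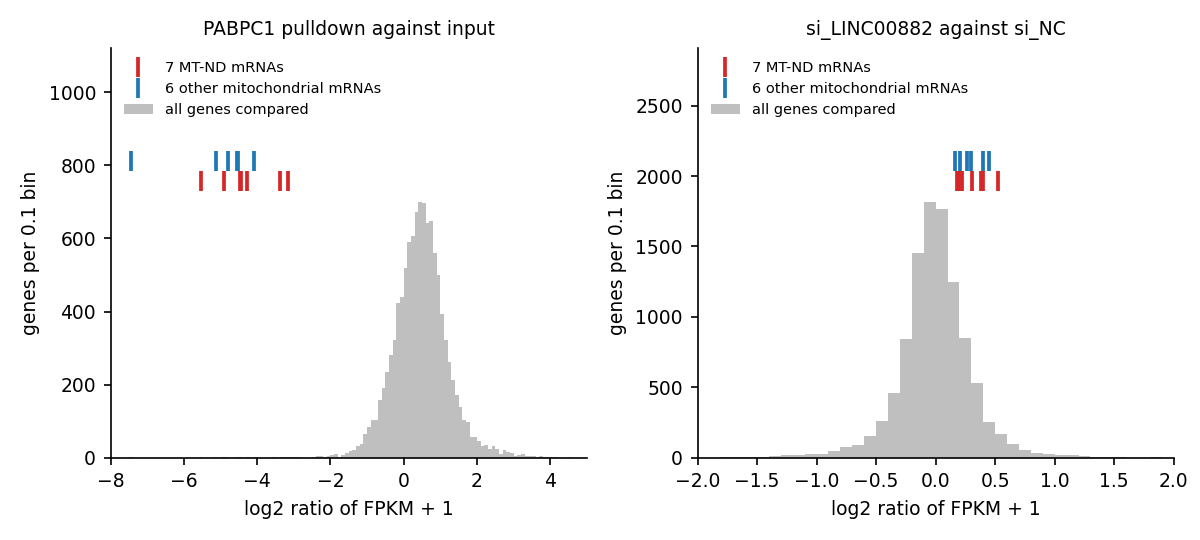
Distribution of log2 ratios of FPKM plus 1 over all genes compared (grey bars, genes per bin of 0.1), with ticks for the 7 MT-ND mRNAs (red) and the 6 other mitochondrial mRNAs (blue), for the pulldown over input (left, axis from -8 to 5) and si_LINC00882 over si_NC (right, axis from -2 to 2). On the left all ticks lie at -3.15 or below, outside the bulk of genes, and on the right all lie above 0 but within it.

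Abundant nuclear-encoded mRNAs had smaller ratios. The 6 nuclear-encoded genes of at least 1000 FPKM in input had a median ratio of -0.60. They were chosen by their level in input, the base of the ratio, and such a choice favours lower ratios. The lowest of them, the ribosomal protein gene RPS12, stood at 412 FPKM in the pulldown and 1097 in input (-1.41). The highest, the cytoskeletal actin gene ACTB, stood at 1072 FPKM in the pulldown and 1252 in input (-0.22). The most abundant nuclear-encoded mRNA, the thymosin gene TMSB10, stood at 2273 FPKM in the pulldown and 3279 in input. It was above every complex I mRNA in the pulldown, and in input it was below 5 of the 7 and above MT-ND5 and MT-ND6. Over si_NC, the 2 nuclear-encoded genes of at least 1000 FPKM in si_NC had a median ratio of 0.34 in the pulldown.

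Setting the pulldown against si_NC, the other control library, kept all 7 mRNAs lower but by less. That library came from transfected whole cells and its FPKM were scaled separately. The 7 ratios lay between -2.71 and -2.14 (median -2.51), all past 2-fold lower, where 2.48% of genes were. The spread of the 7 was 0.57 over si_NC, against 2.39 over input. MT-ND3, at the low end over input, was at -2.49 over si_NC, and MT-ND4L was at -2.31. MT-ND6 had the lowest ratio over si_NC (-2.71) and MT-ND4 the highest (-2.14). The order of the members over input was therefore not kept over si_NC. Both comparisons share the pulldown library.

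**Figure D3:**
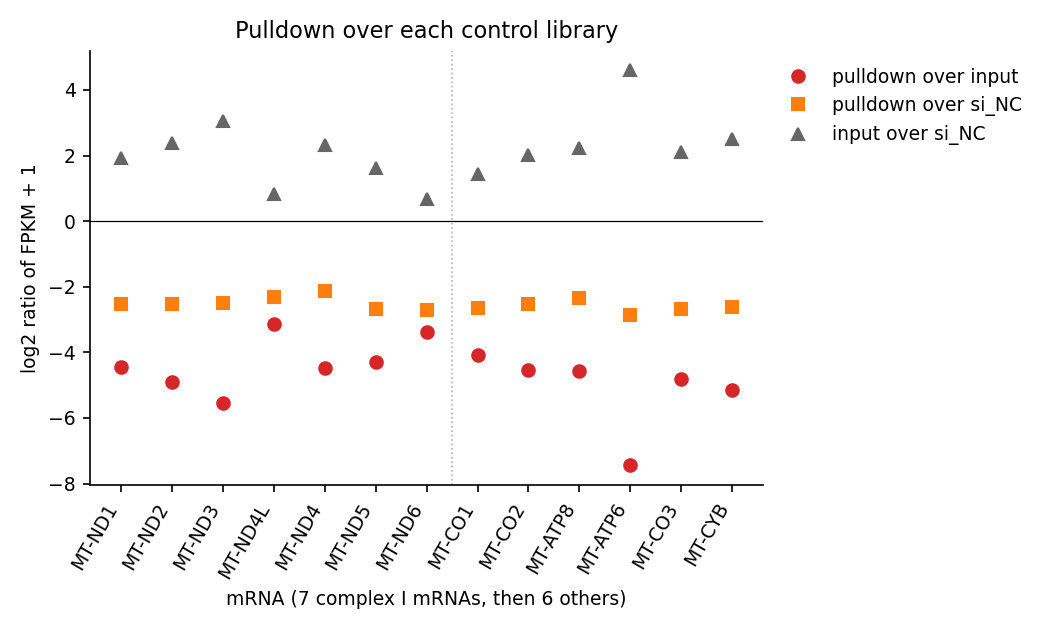
Log2 ratio of FPKM plus 1 for the 7 complex I mRNAs and, right of the dotted line, the 6 other mitochondrial mRNAs, for the pulldown over input (circles), the pulldown over si_NC (squares) and input over si_NC (triangles). The squares form an almost level row between -2.85 and -2.14, while the circles and triangles spread widely and in opposite directions.

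The input library itself differed from si_NC at these genes, although neither had a knockdown or a pulldown. All 7 mRNAs had a ratio above 0 in input over si_NC, as had 36.7% of genes, and 5 of the 7 were past 2-fold higher, where 5.95% of genes were. The ratio of input over si_NC was 3.05 for MT-ND3 (13685 FPKM in input and 1652 in si_NC), 2.38 for MT-ND2 and 2.33 for MT-ND4. It was 1.93 for MT-ND1 and 1.61 for MT-ND5. MT-ND4L, at 5496 FPKM in input and 3080 in si_NC, had a ratio of 0.84, and MT-ND6 one of 0.68. The input library enters both this comparison and the pulldown over input, so the order of the members in them is not independent. The part that lysis, transfection or library preparation plays in this was not tested.

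The make-up of the family, which does not depend on how a library is scaled, set input apart from the other 3 libraries. MT-ND3 made up 10.5% of the summed FPKM of the 7 in the pulldown and 21.7% in input, and 10.4% in si_LINC00882 and 11.3% in si_NC. MT-ND4L made up 22.1% in the pulldown and 8.71% in input, and 19.1% in si_LINC00882 and 21.0% in si_NC. For both genes the pulldown lay beside the transfected cells and away from its own input.

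MT-ND2 made up 14.1% in the pulldown and 18.8% in input, and 16.2% in si_LINC00882 and 15.5% in si_NC. MT-ND4 made up 27.2% in the pulldown and 26.8% in input, and 24.2% in si_LINC00882 and 22.9% in si_NC. MT-ND1 varied least in proportion and made up 19.7% in the pulldown and 19.1% in input, and 21.4% in si_LINC00882 and 21.5% in si_NC. The 2 least abundant were MT-ND5, between 4.26% in input and 6.93% in si_LINC00882, and MT-ND6, between 0.704% in input and 1.89% in si_NC. The share that would have to be moved between genes to turn one make-up into another was 15.9 percentage points between the pulldown and input and 5.44 points between the pulldown and si_NC. It was 3.03 points between si_LINC00882 and si_NC, and 17.6 points between input and si_NC.

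**Figure D4:**
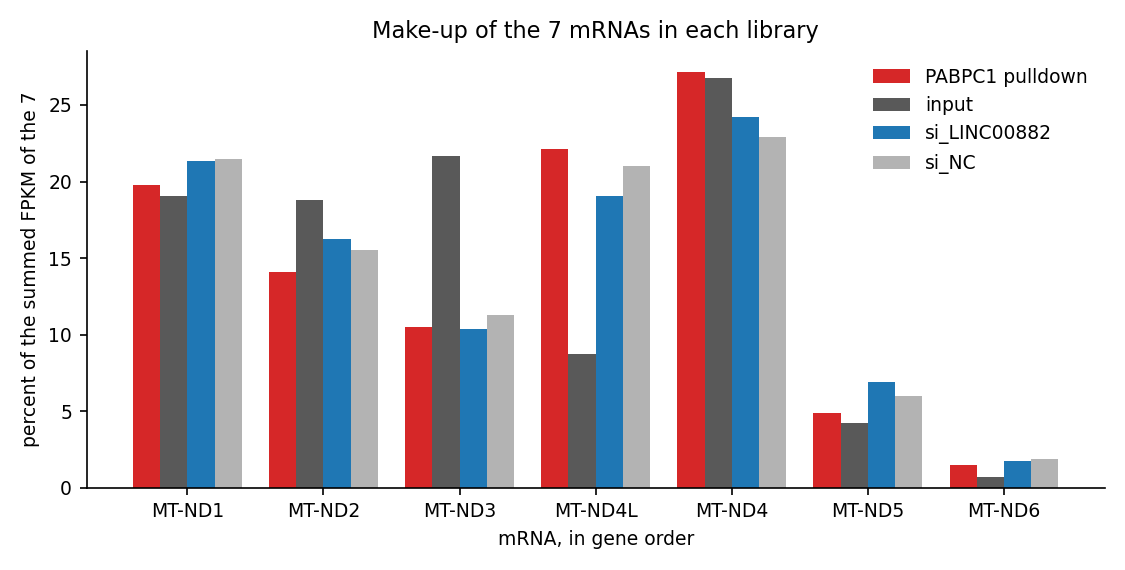
Share of each mRNA in the summed FPKM of the 7, in percent, for each library (bars from 0, 1 library each, genes in their order on the mitochondrial genome). Input stands apart at MT-ND3 (21.7%) and MT-ND4L (8.71%), where the other 3 libraries lie between 10.4% and 11.3% and between 19.1% and 22.1%.

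Levels were also set side by side within a library for neighbouring genes. MT-ND4L and MT-ND4 are read from 1 mRNA, and the level of MT-ND4L over MT-ND4 was 0.814 in the pulldown and 0.326 in input, and 0.787 in si_LINC00882 and 0.917 in si_NC. How fragments over the stretch that both genes share were assigned is not stated in the labels or headers used here, so this ratio of levels is uncertain. The level of MT-ND3, whose gene comes just before MT-ND4L in the RefSeq order, was 0.474 times that of MT-ND4L in the pulldown and 2.49 times in input. It was 0.544 times in si_LINC00882 and 0.536 times in si_NC. The level of MT-ND6 over MT-ND5, neighbours on opposite strands, was 0.304 in the pulldown and 0.165 in input, and 0.255 in si_LINC00882 and 0.315 in si_NC. For the neighbours MT-ND5 and MT-ND4 the pulldown instead lay nearer to input, with a level of MT-ND5 over MT-ND4 of 0.179 in the pulldown and 0.159 in input, and 0.286 in si_LINC00882 and 0.262 in si_NC.

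After LINC00882 knockdown all 7 mRNAs stood slightly above si_NC, by 1.13 to 1.44 times. The log2 ratios lay between 0.18 and 0.52 with a median of 0.31, and the median of the 10478 genes compared was -0.01. None of the 7 reached 2-fold higher, as 0.859% of all genes did, and 48.9% of all genes had a ratio above 0. All members come from the mitochondrial genome and the same library, and all but MT-ND6 from the same strand. The 7 ratios above 0 are therefore not 7 independent observations. In bulk RNA of whole cells, more of a transcript per cell and more cells that hold it cannot be told apart.

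Of the antiporter-like subunits, MT-ND5 stood at 1264 FPKM in si_LINC00882 and 879 in si_NC, the largest ratio of the 7 (0.52). MT-ND4 stood at 4424 FPKM in si_LINC00882 and 3357 in si_NC (0.40). MT-ND2 stood at 2963 FPKM in si_LINC00882 and 2276 in si_NC (0.38). These were the 3 highest ratios among the members. MT-ND1 followed, at 3900 FPKM in si_LINC00882 and 3155 in si_NC (0.31).

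The small subunits had the lower ratios, although all 7 lay within a range of 0.35 and each group was 1 library. MT-ND4 and MT-ND4L share an mRNA, so this grouping does not separate mRNAs. A link with the role of the subunit was not tested. MT-ND6 stood at 323 FPKM in si_LINC00882 and 277 in si_NC (0.22). MT-ND3 stood at 1894 FPKM in si_LINC00882 and 1652 in si_NC (0.20). MT-ND4L stood at 3482 FPKM in si_LINC00882 and 3080 in si_NC (0.18). From highest to lowest, MT-ND5 ranked 427 and MT-ND4L ranked 2356 among the 10478 ratios, so the members lay in the upper part of the distribution but not at its end. The 6 other mitochondrial mRNAs were also all above 0, between 0.16 and 0.44 (median 0.28). The complex I mRNAs made up 43.7% of the summed FPKM of the 13 in si_LINC00882 and 43.0% in si_NC.

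Against input in place of si_NC, the same si_LINC00882 values turned round. All 7 were then lower in si_LINC00882 (median -1.62), and 5 of the 7 were past 2-fold lower, where 5.99% of genes were. The difference between the control libraries at these genes was thus larger than that between si_LINC00882 and si_NC.

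The nuclear-encoded partners in complex I did not share the ratios of the mitochondrial members in the pulldown. All 37 nuclear subunit genes examined were measured, and 3 were past 2-fold higher and 3 past 2-fold lower in the pulldown, with a median of -0.08 that lies below the median of all genes. At 2-fold higher stood 19.6% of all genes compared, and at 2-fold lower 2.37%. NDUFV1, the flavin-carrying subunit that takes up NADH, stood at 13.97 FPKM in the pulldown and 5.71 in input (1.16). In the other direction, the accessory membrane subunit genes NDUFC1 (13.8 FPKM in the pulldown and 33.8 in input, -1.24) and NDUFB9 (7.92 and 19.4 in the same order, -1.19) were lower. The lowest nuclear subunit was thus still 1.91 on the log2 scale above the least reduced mitochondrial member. Over si_NC, 1 nuclear subunit, NDUFB4, was past 2-fold higher in the pulldown (1.11) and none lower. Of all genes, 7.16% were past 2-fold higher over si_NC and 2.48% lower. Over input, NDUFB4 was instead at -0.98. The ratios over si_NC were -0.47 for NDUFV1, 0.42 for NDUFC1 and -0.42 for NDUFB9. NDUFV1 and NDUFC1 thus changed sign with the control library.

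The balance between both genomes in complex I mRNA differed accordingly. The mean level of the 7 mitochondrial mRNAs was 400 FPKM in the pulldown and 9010 in input, and 2607 in si_LINC00882 and 2097 in si_NC. The mean level of the 37 nuclear subunits was 43.7 FPKM in the pulldown and 49.7 in input, and 36.4 in si_LINC00882 and 37.0 in si_NC. A mitochondrial subunit mRNA was thus on average 9.15 times as abundant per length as a nuclear one in the pulldown and 181 times in input. The same figure was 71.6 times in si_LINC00882 and 56.7 times in si_NC. These figures are ratios of means. The median level of the 7 was 394 FPKM in the pulldown and 11865 in input. That of the 37 was 27.4 FPKM in the pulldown and 33.8 in input, so the gap by medians was wider in these libraries.

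Of the 37 nuclear subunits none was past 2-fold in either direction in si_LINC00882 over si_NC. Of all genes, 0.859% were past 2-fold higher and 1.15% past 2-fold lower. The median of the 37 was 0.04, and 20 of them had a ratio above 0, as had 48.9% of all genes. NDUFB4, an accessory membrane subunit, stood at 15.5 FPKM in si_LINC00882 and 10.5 in si_NC (0.52). NDUFA13 stood at 19.8 FPKM in si_LINC00882 and 14.5 in si_NC (0.42). NDUFA6 stood at 29.2 FPKM in si_LINC00882 and 43.7 in si_NC (-0.57), and NDUFB9 at 8.20 and 11.0 in the same order (-0.38).

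Complex I assembly factors, which build the enzyme but are not part of it, had a median of 0.11 in the pulldown over input, with 2 of 19 past 2-fold higher and none lower, where 19.6% of all genes were higher and 2.37% lower. ACAD9 stood at 7.10 FPKM in the pulldown and 1.40 in input (1.75), and FOXRED1 at 6.53 FPKM in the pulldown and 2.61 in input (1.06). Over si_NC these ratios were -0.26 for ACAD9 and 0.08 for FOXRED1. In si_LINC00882 over si_NC none of the 19 was past 2-fold, and the lowest was TIMMDC1, at 7.03 FPKM in si_LINC00882 and 13.2 in si_NC (-0.82).

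Genes for the proteins that transcribe, process, stabilise and decay mitochondrial RNA had a median of 0.46 in the pulldown over input, close to the median of all genes. Of the 31 compared, 2 were past 2-fold higher and none lower, beside the same 19.6% and 2.37% of all genes. The helicase gene DHX30 stood at 9.59 FPKM in the pulldown and 3.59 in input (1.20), and ELAC2, which cuts the ends of mitochondrial tRNAs and so frees the mRNAs between them, at 12.5 FPKM in the pulldown and 5.09 in input (1.15). Over si_NC both were lower in the pulldown (-0.49 and -0.51). SLIRP, the partner of the mRNA-binding protein LRPPRC, stood at 25.7 FPKM in the pulldown and 46.6 in input (-0.83), and its ratio over si_NC was 0.12.

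In si_LINC00882 over si_NC, 26 of 32 of these genes had a ratio below 0 (median -0.08), as had 51.1% of all genes, and none was past 2-fold. TFAM, which packages mitochondrial DNA and starts its transcription, stood at 14.9 FPKM in si_LINC00882 and 27.2 in si_NC (-0.83). PNPT1, of the RNA degrading complex, stood at 16.2 FPKM in si_LINC00882 and 20.9 in si_NC (-0.35). LRPPRC, which binds and stabilises mitochondrial mRNAs, stood at 34.4 FPKM in si_LINC00882 and 41.9 in si_NC (-0.28). Levels of TFAM and of the complex I mRNAs thus stood on opposite sides of si_NC, and a link between them was not tested.

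**Figure D5:**
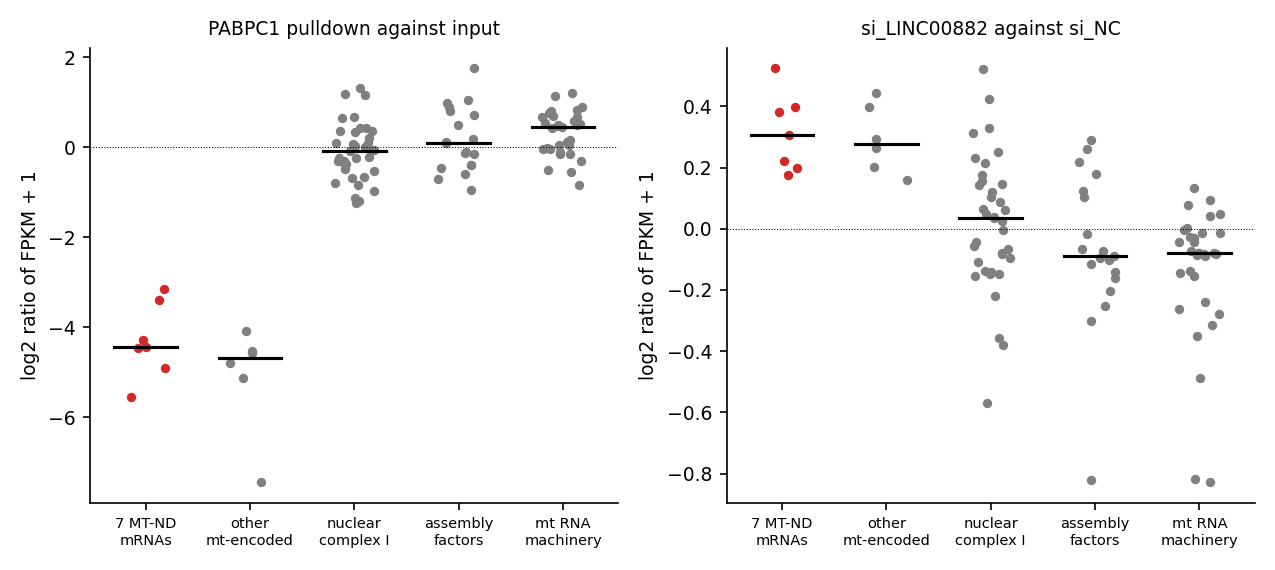
Log2 ratios of FPKM plus 1 for the 7 MT-ND mRNAs, the 6 other mitochondrial mRNAs, 37 nuclear complex I subunits, 19 assembly factors and the genes of mitochondrial RNA handling (31 on the left, 32 on the right), for the pulldown over input (left) and si_LINC00882 over si_NC (right), each panel with its own axis. Each dot is a gene, spread sideways only for legibility, and black bars are medians. On the left the mitochondrial mRNAs lie far below the nuclear lists (medians -4.44 and -4.68, against -0.08, 0.11 and 0.46).

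The profile over the 4 libraries was compared with that of other genes, as the distance between log2 levels centred on each gene's mean. Of 7404 genes of at least 5 FPKM in any library and listed in all, MT-ND1 was the nearest to the mean profile of the 7, which contains it (distance 0.10). The nearest outside the family were the oxidase mRNAs MT-CO2 (0.24) and MT-CO1 (0.28). MT-ATP6, of the same genome, was much farther away, at a distance of 2.52 and rank 212. Its gene overlaps those of MT-ATP8 and MT-CO3, so the fragments assigned to it are uncertain. The nearest nuclear-encoded gene was TOMM6, a small subunit of the channel that imports proteins into mitochondria, at a distance of 0.89, closer than the members MT-ND4L (0.90), MT-ND6 (0.92) and MT-ND3 (1.10). TOMM6 stood at 74.4 FPKM in the pulldown and 632 in input. Its level was 310 FPKM in si_LINC00882 and 261 in si_NC. The next were PPIG (1.34), a cyclophilin of the nucleus, HNRNPA1L2 (1.41), EIF5B (1.47), an initiation factor, and TMEM33 (1.48). HNRNPA1L2 is a close copy of another gene and EIF5B overlaps REV1, so the fragments assigned to them are uncertain. With 4 libraries such distances describe these libraries only.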

How the data were processed

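The deposited tables hold 1 value per gene for each library, in FPKM per the file headers. FastQC 0.11.7, cutadapt 1.17, StringTie 1.3.3, HISAT2 2.1.0 and the build GRCh37 appear in the submitters' processing notes, with no role or order. Annotation version, filters, strandedness, poly(A) selection and depth, and how fragments that match nuclear copies of mitochondrial DNA were placed, are not stated there or in the labels. Intervals and detection limits were therefore not computed. Groups follow the treatment labels, with 1 library each, so no test was run.

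From the deposited FPKM, log2 ratios were computed with a pseudocount of 1, keeping genes that reach 1 FPKM in a library of the pair, and counted at 2-fold. Members and gene lists were chosen with earlier results of these data known. Named genes are all 13 mitochondrial mRNAs, up to 4 genes of at least 5 FPKM per list with the largest absolute ratios, the 5 nearest nuclear-encoded profiles, and the abundant nuclear genes of lowest and highest ratio. TMSB10 and NDUFB4 over si_NC were named after their values were seen. One gene that the rule names is not reported here. RefSeq genes of GRCh38.p14, another build, gave gene order and overlaps only, and all 7 members matched. The ratio step was tested on simulated libraries. Alternatives were other pseudocounts, minimums, scalings, size rules and the other control library. Computations ran in Python 3.11.15 with pandas 2.3.3, numpy 2.4.6 and, for plots, matplotlib 3.10.9.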

Additional observations from a re-analysis of the deposited data

How the results depend on the processing

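With 1 library per group, the spread between replicates is unknown for all of these values. No paired analysis was possible because each group holds 1 library. Within each pair, under other pseudocounts, minimums, size rules, centring and rescaling, the median ratio of the 7 mRNAs lay between -4.91 and -3.67 in the pulldown over input and between 0.26 and 0.31 in si_LINC00882 over si_NC. All 7 stayed past the size rule in the pulldown, and none reached it after knockdown. With input in place of si_NC, the ratios in si_LINC00882 changed sign, to -1.62 for MT-ND1, -2.001 for MT-ND2, -2.85 for MT-ND3, -1.93 for MT-ND4, -0.66 for MT-ND4L, -1.09 for MT-ND5 and -0.46 for MT-ND6. Their median was then -1.62, with 5 past 2-fold lower, and the median of the 6 other mitochondrial mRNAs was -1.85. The cause was not tested. Counts past 2-fold among the nuclear lists moved with scaling. For nuclear complex I subunits in the pulldown they were 0 higher and 9 lower with the pair centred, and 10 higher and 0 lower with each library rescaled to the same sum. With the pair centred, the median of these subunits was -0.54 and that of all genes 0. With rescaling, these medians were 0.69 and 1.26. The subunits thus lay below the median of all genes under either setting. The shares of all genes past 2-fold were not computed for these settings.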

Other observations

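Other subunits of the mitochondrial import channel, chosen after the value of TOMM6 was seen, did not have its ratio in the pulldown over input (-3.07). TOMM7 stood at 82.0 FPKM in the pulldown and 80.0 in input (0.04), and TOMM20, an import receptor, at 107 FPKM in the pulldown and 99.6 in input (0.11). TOMM22 stood at 53.7 FPKM in the pulldown and 50.7 in input (0.08), and TOMM5 at 26.9 FPKM in the pulldown and 21.8 in input (0.29). TOMM40, the pore itself, was past 2-fold higher, as were 19.6% of all genes, at 41.6 FPKM in the pulldown and 16.9 in input (1.25). Over si_NC the ratio in the pulldown was -1.80 for TOMM6, 0.35 for TOMM40 and 0.98 for TOMM22. It was 0.32 for TOMM7, -0.002 for TOMM20 and -0.11 for TOMM5. MTRNR2L12, a nuclear gene that resembles the mitochondrial large ribosomal RNA, stood at 0.177 FPKM in the pulldown and 3.74 in input (-2.01). Its level was 2.06 FPKM in si_LINC00882 and 2.32 in si_NC (-0.12). Its sequence is close to that of mitochondrial DNA, so the source of its fragments is uncertain.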
